A study of Mus musculus with 12 samples.

Results

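Neural progenitors and neuroblasts of the adult mouse hippocampus were taken as the cells that the authors' deposited annotation calls Progenitor, 197 of 19834 cells in 12 single-cell libraries. All 197 belonged to 1 cluster of the authors, number 16, which held no other cell. The dentate gyrus of the hippocampus keeps making neurons in adult life. Quiescent radial glia-like stem cells give rise to dividing intermediate progenitors that express Eomes, and these become neuroblasts that express Dcx, Neurod1 and Calb2 before they mature into Prox1-positive granule neurons. The neighbouring ventricular-subventricular zone makes another kind of neuroblast, which carries Dlx transcription factors and becomes a GABAergic interneuron.

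The mice were 9-week-old C57/BL6J females given phosphate-buffered saline (PBS) or cisplatin, a platinum drug that crosslinks DNA. In each arm 1 group stayed without stimulation (PBS nonstim, Cisplatin nonstim) and 1 received 40 Hz light and sound for 1 h a day over 21 days (PBS stim, Cisplatin stim), and the hippocampi were taken on day 22. Each group had 3 libraries, and every library held whole dissociated hippocampi, so the animals within one were pooled: replicate 1 held 2 hippocampi of 1 animal, replicates 2 and 3 held 4 hippocampi of 2 animals. The library identifiers start with 20 for replicate 1 and 21 for replicates 2 and 3 (below, first and second batch).

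Cells per library numbered 611 to 2772, and unique molecular identifiers (UMIs, each a counted RNA molecule) 3964338 to 17656020. Progenitors had a median of 3997 UMIs and 1889 genes, and their UMIs summed to 5438 to 249215 per library. The 40 progenitors of the first batch were shallower than the 157 of the second, with medians of 1264.5 and 5135 UMIs and of 17.8% and 3.29% mitochondrially encoded UMIs. No progenitor shared its barcode with another cell, although 112 of the 19834 cells did so between libraries. The authors' highest doublet score among progenitors was 0.097, no deposited cell was marked as a doublet, and no further doublet call was made.

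The annotation was first set against marker genes. Igfbpl1, a marker of early neuroblasts, had a UMI in 172 of 197 progenitors (87.3%, exact 95% binomial interval 81.8% to 91.6%), against 7 of 4530 microglia (0.155%), although microglia were deeper with a median of 6122.5 UMIs. Sox11, a transcription factor of newborn neurons, had a UMI in 176 progenitors, Dcx, the microtubule protein doublecortin of migrating neuroblasts, in 142, and Neurod1, a factor that drives granule neuron differentiation, in 98. Calb2, the calcium-binding protein calretinin of immature granule neurons, had a UMI in 69 progenitors, and Hist1h2ap, a histone gene of dividing cells, in 71. Of these genes Hist1h2ap had the highest share in microglia, 789 of 4530 (17.4%), so a UMI of it separated progenitors from microglia least. In oligodendrocyte precursors it had a UMI in 149 of 894 cells (16.7%), fewer than Sox11 (49.2%), Dcx (35.9%) and Calb2 (22.6%). In all, 179 of 197 progenitors had UMIs of at least 2 of Igfbpl1, Sox11, Dcx, Neurod1 and Calb2, and 8 had none of them. Some genes of earlier and later stages were scarce. Hopx, a marker of radial glia-like stem cells that astrocytes share, had 30 UMIs in 16 cells. The mature granule neuron genes C1ql2, Calb1 and Dsp had 1 UMI each. Others were not scarce: Sox2 had a UMI in 46.2% of progenitors, Emx2 in 37.1%, Sox9 in 26.9% and Prox1 in 64.0% (126 of 197). The cells called progenitors were thus for the most part cells with neuroblast genes, and part of them also had genes of earlier or later stages.

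**Figure D1:**
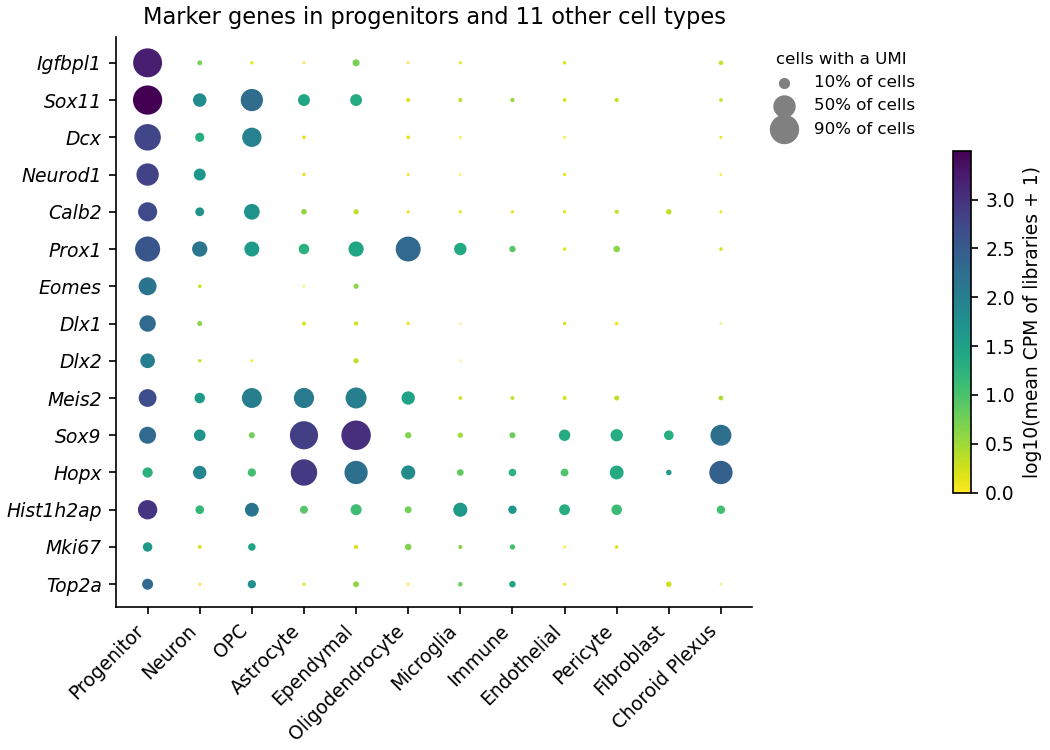
Marker genes (rows) in the 12 annotated cell types (columns), where the colour is log10 of the mean CPM of the libraries plus 1 and the area of a point is the share of cells with a UMI. Igfbpl1, Eomes, Dlx1 and Dlx2 are near 0 outside progenitors, whereas Sox11, Dcx and Calb2 also appear in oligodendrocyte precursors and Hopx and Sox9 are higher in astrocytes.

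Levels are given as CPM, counts scaled to 1000000 progenitor UMIs of a library. Averaged over the 12 libraries Igfbpl1 stood at 1592 CPM in progenitors and at 4.32 CPM in neurons, the next highest type, a ratio of 369. Among genes with a UMI in at least 20% of progenitors, the 15 with the largest such ratio ran from Igfbpl1 down to Mex3a, an RNA-binding protein, at 10.6. They included Eomes at a ratio of 46.6, Neurod1 at 14.2 and Insm1, a factor of dividing neurogenic progenitors, at 66.4. They also included a GABAergic set: the transcription factors Sp9 (87.7) and Dlx1 (61.6), the Dlx6 antisense transcript Dlx6os1 (28.2) and Gad2, an enzyme that makes GABA (11.01). Draxin (58.1), an axon guidance protein, Scrt2 (24.4), Sox11 (16.8), Sstr2 (15.7), Dpysl5 (13.7) and Cdca7 (12.9) completed the 15. These ratios describe the cluster and were not tested, since the same genes were used to cluster the cells. The next highest type differed by gene: it was the oligodendrocyte precursor for Sox11, at 188 CPM against 3159 CPM.

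Some genes were shared with glial types. Dcx had a UMI in 321 of 894 oligodendrocyte precursors and Calb2 in 202, so neither gene alone marked the cells. Prox1 stood at 364 CPM in progenitors and at 199 CPM in oligodendrocytes. Markers of the 11 other types were low inside progenitors: all 6 to 7 microglial, endothelial or immune markers of each list summed to at most 0.033% of the progenitor UMIs of a library. The oligodendrocyte list (6 markers, 0 at 0 UMIs) reached 0.0128% to 0.596% over the libraries, against 5.42% in oligodendrocytes, and the astrocyte list (6 markers, 0 at 0 UMIs) 0.0319% to 0.191%, against 2.20% in astrocytes. The oligodendrocyte precursor list reached 0.0176% in PBS and 0.110% in cisplatin libraries, against 0.803% in precursors. The fibroblast list, with 6 UMIs in all, reached 0.0471% in a cisplatin library, against 0.325% in fibroblasts. Of the 6 choroid plexus markers, 4 (Folr1, Kl, Clic6 and Kcne2) had no UMI, and Ttr is taken up below.

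Of 9 genes looked for in the RefSeq promoter table (the 6 markers, Sox9, Eomes and Dlx2) 5 had an entry, and the promoters of 3 are shown because the genes stand for what the cells had in common (Sox11) and for the 2 sets of factors that divided them (Eomes and Dlx2). They are the 250 bases before the RefSeq start of each gene on GRCm38.p6, 5′ to 3′ on the gene's strand, and none of them reaches into an annotated transcript of the gene. Capitals mark CpG dinucleotides.
Sox11, chr12:27342719-27342968, minus strand: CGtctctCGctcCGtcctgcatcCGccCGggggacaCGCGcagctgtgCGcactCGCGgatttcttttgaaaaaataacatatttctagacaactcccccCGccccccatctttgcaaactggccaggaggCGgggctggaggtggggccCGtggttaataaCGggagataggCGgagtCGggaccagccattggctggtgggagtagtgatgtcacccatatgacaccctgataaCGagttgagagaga
Eomes, chr9:118477939-118478188, plus strand: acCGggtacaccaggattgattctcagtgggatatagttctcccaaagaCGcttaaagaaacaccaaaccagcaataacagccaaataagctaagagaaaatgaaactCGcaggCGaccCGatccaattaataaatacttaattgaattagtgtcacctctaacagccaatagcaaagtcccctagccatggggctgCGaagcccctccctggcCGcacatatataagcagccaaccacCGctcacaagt
Dlx2, chr2:71546755-71547004, minus strand: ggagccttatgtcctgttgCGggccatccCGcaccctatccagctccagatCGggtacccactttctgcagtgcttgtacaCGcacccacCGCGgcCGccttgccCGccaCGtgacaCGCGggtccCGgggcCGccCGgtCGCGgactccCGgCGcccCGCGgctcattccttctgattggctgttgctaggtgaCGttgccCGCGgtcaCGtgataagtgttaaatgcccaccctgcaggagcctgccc
The Dlx2 window held 24 CpG and 66.4% G and C bases, the Sox11 window 17 CpG and 58.0%, and the Eomes window 8 CpG and 46.4%. Over 32851 windows of the same length the medians were 6 CpG and 52.4%, and 11.98%, 23.5% and 43.0% of windows held at least as many CpG as those of Dlx2, Sox11 and Eomes. Searched on both strands, the E-box CAGATG, the homeodomain motif TAATTA and the SOX motif ACAAAG had no match in the 3 windows, and 14.4%, 4.84% and 16.5% of all windows held them.

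The progenitors divided by 2 sets of neuronal factors. Of 197 cells, 107 (54.3%, exact 95% interval 47.1% to 61.4%) had a UMI of Neurod1, Neurod2, Neurod6 or Eomes, factors of glutamatergic granule neurons, and at most 1 gene of a GABAergic list. Another 48 (24.4%, 18.5% to 30.97%) had UMIs of at least 2 of the 14 genes of that list, which includes Dlx1, Dlx2, Dlx5, Dlx6, Dlx6os1, Gad1, Gad2, Sp8, Sp9, Etv1, Meis2, Six3 and Cdca7l, and none of the 4 factors. Only 12 cells met both rules and 30 met neither. The set of 4 factors was chosen after the values were seen, so what follows describes the cells and is not a test. The 12 cells with both were deep, with a median of 15127 UMIs against 5187 and 3948 in the first 2 sets, and the 30 with neither were shallow, with a median of 1373. The authors' doublet score reached 0.096 in the cells with both and also in the 107 cells with the glutamatergic factors. Its median was 0.0529 in the cells with both, 0.0431 and 0.0410 in the first 2 sets and 0.0558 in the cells with neither. With every cell thinned to 1000 UMIs, which left out 17 shallower cells, 91 of 180 cells had the glutamatergic factors, 46 the GABAergic list, 0 both and 43 neither. The 0 of 180 allows a share of up to 1.67% at that depth.

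**Figure D2:**
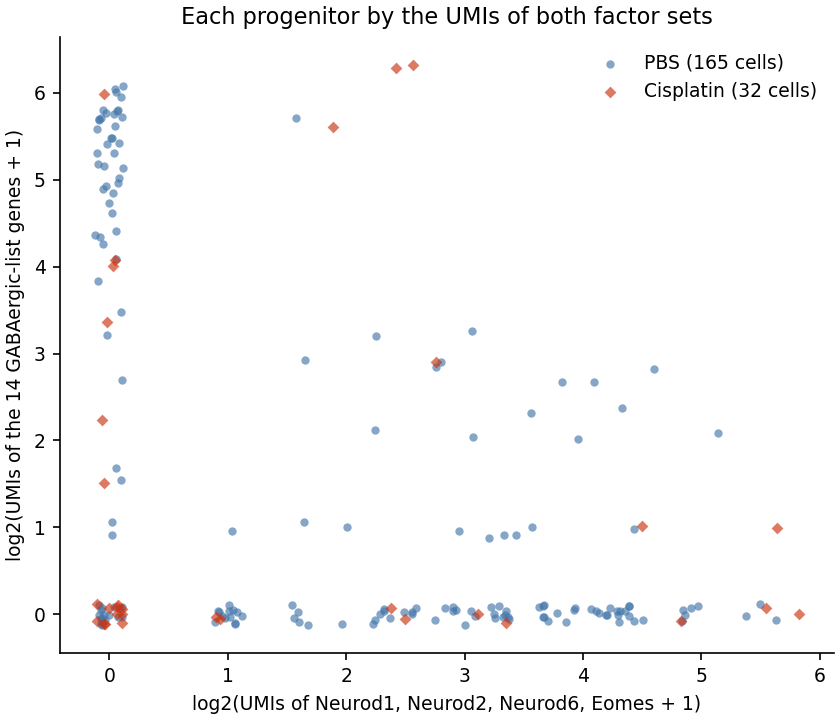
Each of the 197 progenitors by its UMIs of Neurod1, Neurod2, Neurod6 and Eomes (x axis, log2 of UMIs plus 1, spread sideways for display) and of the 14 GABAergic genes (y axis, same scale), in blue for PBS and red for cisplatin. Most cells lie along 1 axis or the other, and cells of both arms lie along each.

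Genes outside both sets followed the same split. Calb2 had a UMI in 65 of the 107 cells with glutamatergic factors and in 0 of the 48 GABAergic-list cells, which allows up to 6.25% there. Bhlhe22, a factor of glutamatergic neurons, had a UMI in 67 of 107 and 0 of 48, Tac2, a neurokinin precursor, in 33 and 0, and Id2, an inhibitor of helix-loop-helix factors, in 74 and 2. Emx2, which patterns the dorsal telencephalon, had a UMI in 59 of 107 cells and 3 of 48. Prox1 crossed the split, with 87 of 107 cells and 22 of 48. Genes of neuroblasts in general did not separate the sets: Sox11 had a UMI in 100 of 107 and 44 of 48 cells, Sox4, its relative, in 98 and 47, and Dcx in 80 and 40. Sox2 and Sox9, factors of stem cells and glia, had UMIs in 46 and 22 of the 107 cells and in 29 and 19 of the 48. Stmn2, a neuronal cytoskeleton regulator, stood at 658 CPM over the first set and 1914 CPM over the second. In the deposited metadata, 160 of the 197 cells carried a second label of Excitatory, 36 carried none and 1 carried Microglia2.

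**Figure D3:**
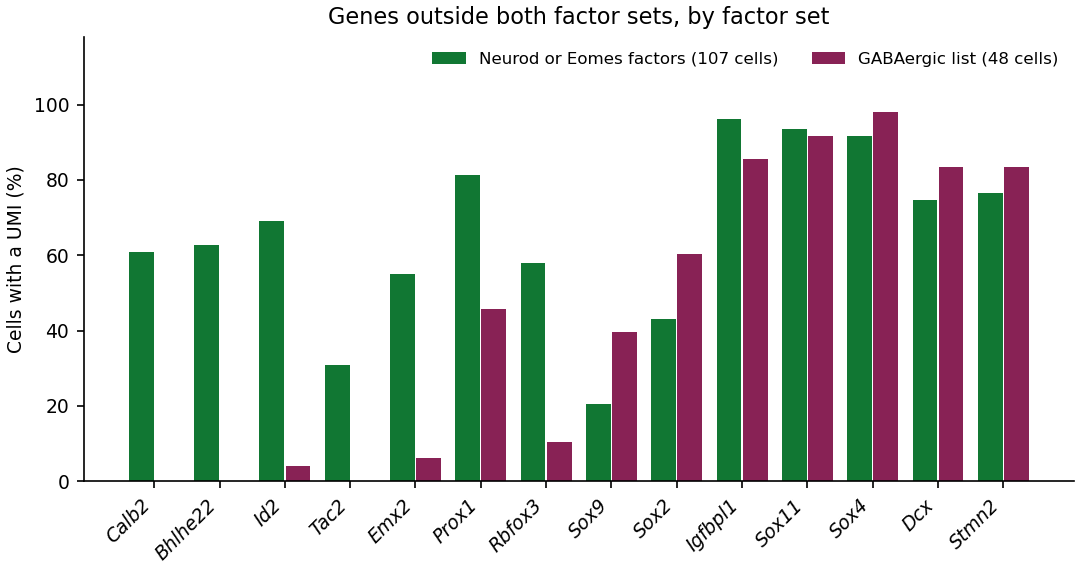
Share of cells with a UMI of 14 genes in the 107 cells with Neurod or Eomes factors (green) and the 48 cells of the GABAergic list (purple). Calb2, Bhlhe22 and Tac2 are at 0% in the GABAergic-list cells, whereas Igfbpl1, Sox11, Sox4, Dcx and Stmn2 lie at 74.8% or more in both sets.

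The first comparison asks whether cisplatin, with or without stimulation, changed how many progenitors were recovered. Progenitors made up a smaller share of the cells in all 6 cisplatin libraries than in any of the 6 PBS libraries. In PBS nonstim they were 1.502% (19 of 1265), 1.37% (38 of 2772) and 1.84% (36 of 1952) of the cells of replicates 1, 2 and 3. In PBS stim they were 1.15% (7 of 611), 1.67% (28 of 1677) and 1.43% (37 of 2580). In Cisplatin nonstim they were 0.570% (11 of 1930), 0.221% (6 of 2709) and 0.450% (5 of 1110). In Cisplatin stim they were 0.271% (3 of 1105), 0.101% (1 of 992) and 0.531% (6 of 1131). The lowest PBS value, 1.15%, was thus above the highest cisplatin value, 0.570%. The means were 1.49% ± 0.24 (SD, n = 6) and 0.357% ± 0.187 (SD, n = 6), and over pooled cells 165 of 10857 PBS cells and 32 of 8977 cisplatin cells were progenitors. These are shares of recovered cells; the number of cells in the tissue was not measured.

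**Figure D4:**
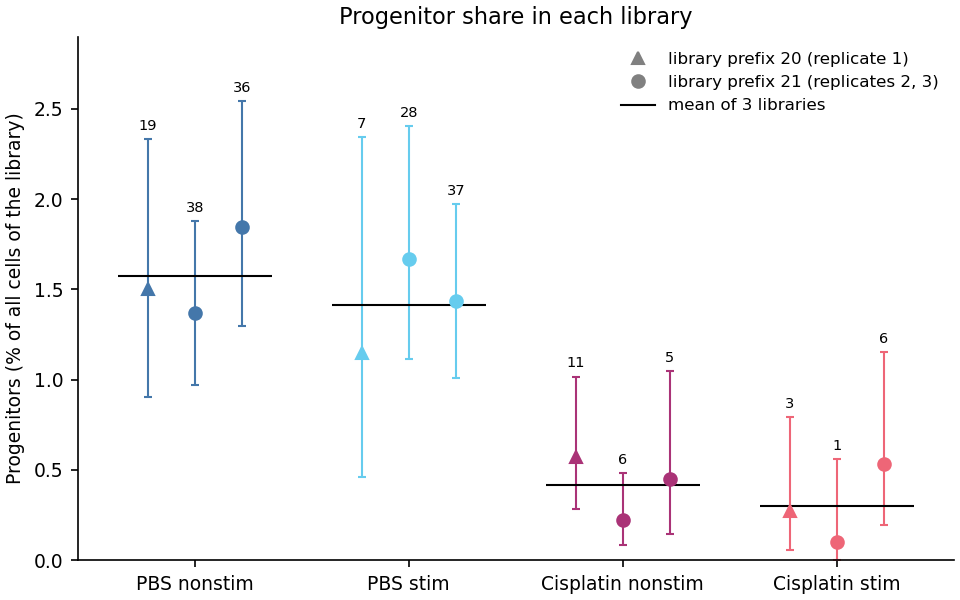
Progenitors as a percentage of all cells of each library, by group, with exact 95% binomial intervals that cover counting error only, the number of progenitors above each and a black line at the mean of 3 libraries. The 6 PBS libraries lie between 1.15% and 1.84% and the 6 cisplatin libraries between 0.101% and 0.570%, in both batches.

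Averaged over stimulation, the progenitor share was 4.25-fold lower with cisplatin (log2 change −2.09 ± 0.40 SE, 95% interval 2.36-fold to 7.67-fold lower, edgeR quasi-likelihood adjusted p = 0.000549 over 12 types). Of the 12 cell types, 4 (33.3%) passed in that comparison. An exact two-sided permutation of the mean share within batches gave p = 0.00476, the smallest its 420 arrangements allow. The ratio of mean shares was 3.15 within the first batch and 4.85 within the second. Without stimulation the share was 3.90-fold lower in Cisplatin nonstim than in PBS nonstim (log2 change −1.96 ± 0.52 SE, edgeR adjusted p = 0.0092, 3 of 12 types or 25% called). With 3 libraries a side in 2 batches the exact two-sided permutation test cannot go below p = 0.167, the value it gave.

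The share depends on the other cells counted. In the same fit choroid plexus cells rose, with a log2 change of 1.24 ± 0.30 (edgeR adjusted p = 0.00222), and so did fibroblasts, 72 cells in all, by 3.03 ± 0.56 (edgeR adjusted p = 0.000549), while microglia fell by 0.53 ± 0.12 (edgeR adjusted p = 0.00204). Oligodendrocyte precursors, the other dividing cells of the adult brain, changed by −0.67 ± 0.30 (edgeR adjusted p = 0.0951) and neurons by 0.01 ± 0.29 (edgeR adjusted p = 0.962). Set against cells of neural origin only, progenitors had a log2 change of −1.94 (edgeR adjusted p = 0.000379). Per 100 oligodendrocyte precursors there were 14.6 to 45.1 progenitors in the PBS libraries and 4.35 to 15.6 in the cisplatin libraries, ranges that overlapped slightly. The mean log2 ratio to oligodendrocyte precursors was lower by −1.58 with cisplatin (exact two-sided permutation within batches, p = 0.00476, 6 against 6 libraries). That to neurons was lower by −2.23 (exact two-sided permutation, p = 0.00952, 6 against 6 libraries).

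The share was also counted without the annotation. Counted as cells of any type with an Igfbpl1 UMI, 172 of which were progenitors, the share was 1.24% to 2.21% in the PBS libraries and 0.271% to 0.796% in the cisplatin libraries (log2 change −1.60, edgeR adjusted p = 0.00299). Counted as cells of any type with UMIs of at least 3 of Igfbpl1, Sox11, Neurod1, Dcx and Calb2, it was 1.24% to 2.27% and 0.271% to 0.796% (log2 change −1.77, edgeR adjusted p = 0.00139). The second rule took 152 progenitors, 75 oligodendrocyte precursors, 9 neurons and 4 other cells. Both counts were chosen after the data were seen.

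Both sets of factors were rarer with cisplatin. Cells with glutamatergic factors made up 0.711% to 0.818% of all cells in the 2 first-batch and 0.736% to 1.07% in the 4 second-batch PBS libraries. With cisplatin they made up 0% to 0.0518% in the 2 first-batch and 0% to 0.3604% in the 4 second-batch libraries, below every PBS library. GABAergic-list cells made up 0.289% to 0.820% of all cells in the second-batch PBS libraries and 0% to 0.265% in the second-batch cisplatin libraries, also without overlap. In the first batch, whose cells were shallow, they were 0% to 0.158% and 0% to 0.104%. Among second-batch progenitors alone, the glutamatergic set took 81 of 139 PBS cells (58.3%, exact 95% interval 49.6% to 66.6%) and 11 of 18 cisplatin cells (61.1%, 35.7% to 82.7%). The GABAergic set took 40 of 139 (28.8%, 21.4% to 37.1%) and 4 of 18 (22.2%, 6.41% to 47.6%). These second-batch intervals overlap widely. Among first-batch progenitors the glutamatergic set took 14 of 26 PBS cells (53.8%, 33.4% to 73.4%) and 1 of 14 cisplatin cells (7.14%, 0.181% to 33.9%). The GABAergic set took 2 of 26 and 2 of 14 there, and 10 of 26 and 11 of 14 cells met neither rule. First-batch library medians were 999 to 1245 UMIs in PBS and 1400 to 1534 in cisplatin. All these intervals cover counting error only, and no test was made because 1 set was chosen from these cells.

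Stimulation was asked of each arm separately. In PBS mice the progenitor share changed by −0.11 ± 0.47 on the log2 scale (95% interval −1.10 to 0.88, edgeR adjusted p = 0.948), with 2 of the 3 stimulated libraries inside the range of the unstimulated ones. In cisplatin mice it changed by −0.36 ± 0.68 (95% interval −1.80 to 1.08, edgeR adjusted p = 0.876), on 10 against 22 cells. The interaction of drug and stimulation was −0.25 ± 0.81 (edgeR adjusted p = 0.836). With so few cells the intervals reach from a more than 2-fold loss to a gain, so no statement on a rescue or a further loss can be made at this depth.

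Cycling was read from 24 genes of S phase and 26 of G2 and M phase. UMIs of at least 3 G2 and M genes were found in 41 of 197 progenitors (20.8%, exact 95% interval 15.4% to 27.2%), and in 19 of 180 after thinning to 1000 UMIs. Top2a, a topoisomerase of dividing cells, had a UMI in 19 progenitors (9.64%), against 31 of 4530 microglia (0.684%), and Mki67, a proliferation marker, in 13 progenitors (6.60%) against 22 microglia (0.486%). Oligodendrocyte precursors were nearer, with a UMI of Top2a in 41 of 894 cells (4.59%) and of Mki67 in 32 (3.58%). Their median depth was 6020.5 UMIs, against 3997 in progenitors. The authors' phase labels put 95 progenitors in G1, 67 in S and 35 in G2M. Dividing cells occurred in each set: 16 of 107 cells with glutamatergic factors, 9 of 48 GABAergic-list cells, 9 of the 12 cells with both and 7 of the 30 with neither had at least 3 G2 and M genes.

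The share of cycling cells was compared between arms over the 10 libraries with at least 5 progenitors. Cells with at least 2 phase genes were 26.3%, 81.6% and 88.9% in PBS nonstim and 14.3%, 71.4% and 81.1% in PBS stim. They were 54.5%, 66.7% and 100% in Cisplatin nonstim and 66.7% in Cisplatin stim replicate 3, where 4 of 6 cells counted. The ranges overlapped, and both PBS libraries of the shallow first batch were lowest. The means were 60.6% ± 31.9 (SD, n = 6) and 72.0% ± 19.5 (SD, n = 4), which differed by 11.4 percentage points (exact two-sided permutation within batches, p = 0.286, smallest possible 0.00952). After thinning to 1000 UMIs, where 1 PBS library dropped below 5 cells, they were 27.9% ± 9.3 (SD, n = 5) and 34.4% ± 10.7 (SD, n = 4) (exact two-sided permutation, p = 0.5). The count of at least 3 phase genes without thinning gave a difference of 14.6 points (exact two-sided permutation, p = 0.0286, 4 against 6 libraries), so the call depends on that threshold.

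Gene expression was compared in the same 10 libraries, 6 PBS with 165 cells and 4 cisplatin with 28 cells, over 2358 genes. The 4 cisplatin libraries were the 3 of Cisplatin nonstim and Cisplatin stim replicate 3. Averaged over stimulation, 7 genes (0.297%) passed with cisplatin: 3 were higher (0.127%), Calb2, Sox9 and Ttr, and 4 were lower (0.17%), Lars2, AY036118, Gm42418 and Hist1h1e. At an unadjusted p under 0.05 there were 127. The median log2 change of all tested genes was 0.01. The calls rest on few cells, and their number was 0 when libraries with under 10 progenitors, 3 of the 4 cisplatin libraries, were left out.

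Calb2 was among the markers and was the 1 member of the 24 neuroblast genes that was called. Its levels were 206, 437 and 301 CPM in PBS nonstim, 255, 542 and 340 CPM in PBS stim, 357, 1042 and 1507 CPM in Cisplatin nonstim and 1245 CPM in Cisplatin stim replicate 3. All 3 second-batch cisplatin libraries were above every PBS library, and the first-batch one lay within the PBS range. The log2 change was 1.54 ± 0.28 (edgeR adjusted p = 0.00468). It was 1.65 with an edgeR adjusted p of 0.0666 without Cisplatin stim replicate 3. The call was also lost in libraries with at least 10 progenitors (0.77), with all libraries (1.27), with the ribosomal RNA-like share described below as a covariate (1.61) and in cells with at most 10% mitochondrial UMIs (1.74), with edgeR adjusted p of 0.698, 0.385, 0.1002 and 0.163. Over all progenitors, 59 of 165 PBS cells (35.8%) and 10 of 32 cisplatin cells (31.2%) had a UMI. Among cells with glutamatergic factors 56 of 95 and 9 of 12 had one. The cells that had one held a mean of 5.53 UMIs in PBS and 18.6 in cisplatin, and 2 cells held 40.9% of the 186 cisplatin UMIs. These means are not scaled for depth. Progenitors had library medians of 999 to 5789 UMIs in PBS. The medians were 1400, 13063 and 9480 UMIs in Cisplatin nonstim and 3255.5 in Cisplatin stim replicate 3. In the cells with glutamatergic factors, the level over pooled cells was 631 CPM in 95 PBS cells and 2102 CPM in 12 cisplatin cells.

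**Figure D5:**
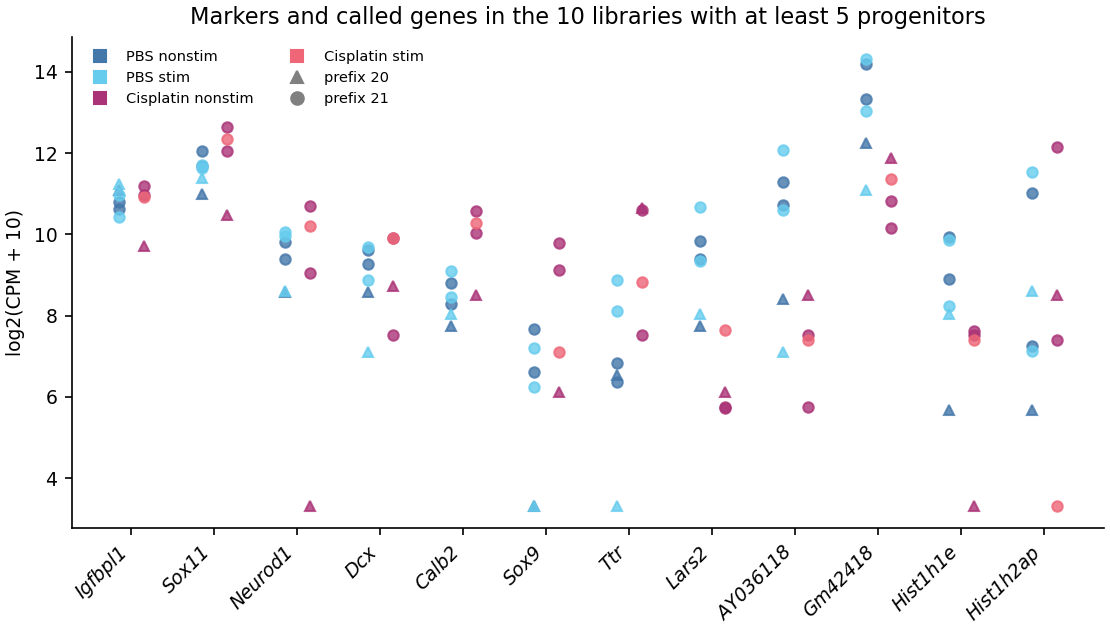
Levels of 12 genes as log2 of CPM plus 10 in the 10 libraries with at least 5 progenitors, coloured by group, with triangles for the first batch and circles for the second. Lars2 is lower in the cisplatin libraries, without overlap. Calb2 and Sox9 are higher in some cisplatin libraries and within the PBS range in others. Igfbpl1 and Dcx overlap, and Hist1h2ap varies over the whole axis within each arm.

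Sox9, a factor of stem cells and astrocytes, was the 1 gene called among 7 tested members of the radial glia-like list of 14. Its levels were 0, 88.3 and 194 CPM in PBS nonstim, 0, 65.5 and 139 CPM in PBS stim, 59.5, 550 and 874 CPM in Cisplatin nonstim and 128 CPM in Cisplatin stim replicate 3. Replicates 2 and 3 of Cisplatin nonstim stood above all other libraries, and the remaining 2 cisplatin libraries lay within the PBS range. The log2 change was 1.896 ± 0.381 (edgeR adjusted p = 0.013). Of its 85 cisplatin UMIs, 71 lay in the 3 cisplatin cells with both sets of factors, and 2 cells held 67.1%. Without Cisplatin nonstim replicate 3 or without PBS nonstim replicate 2 it did not pass (edgeR adjusted p = 0.0634 and 0.501). Nor did it pass in libraries with at least 10 progenitors, with all libraries, with the ribosomal RNA-like covariate or in cells with at most 10% mitochondrial UMIs (edgeR adjusted p = 0.653, 0.184, 0.662 and 0.178), or in limma-voom (adjusted p = 0.0618). Glial markers were counted in the same cells. UMIs of at least 2 of the 6 astrocyte markers were found in 24 of 165 PBS and 15 of 32 cisplatin progenitors, and in 2 of 151 and 6 of 29 after thinning to 1000 UMIs. For the 6 oligodendrocyte markers the counts were 39 of 165 and 17 of 32, and 6 of 151 and 4 of 29. The summed astrocyte markers ranged over the libraries from 0.0349% to 0.191% of progenitor UMIs in PBS and from 0.0319% to 0.131% in cisplatin, the oligodendrocyte markers from 0.0189% to 0.267% and from 0.0128% to 0.596%, and no marker of either list was at 0. Their part in the Sox9 result was not tested. The other tested stem cell genes did not pass, among them Id4 at 1.08 ± 0.45 (edgeR adjusted p = 0.817), Fabp7 at −1.48 ± 0.83 (edgeR adjusted p = 0.903) and Sox2 at −0.68 ± 0.41 (edgeR adjusted p = 0.913), and the list's median was −0.14.

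The remaining neuroblast genes gave no call. Igfbpl1 stood at 1374, 1888 and 2419 CPM (lowest, median and highest of 6 libraries) in PBS and, likewise over 4 libraries, at 833, 1952 and 2344 CPM in cisplatin, with a log2 change of −0.05 ± 0.27 (edgeR adjusted p = 0.996). Sox11 changed by 0.30 ± 0.25 (edgeR adjusted p = 0.952), Neurod1 by 0.16 ± 0.35 (edgeR adjusted p = 0.988) and Dcx by 0.08 ± 0.35 (edgeR adjusted p = 0.996), each with overlapping libraries. The list's median was 0.16 over 24 tested members, 18 of them above 0. Tubb3, a neuronal tubulin, had 0.65 ± 0.28 (edgeR adjusted p = 0.817) and Draxin −1.09 ± 0.51 (edgeR adjusted p = 0.817).

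The lists of later and earlier stages gave no call either. Prox1, the granule neuron factor, stood at 255, 563 and 626 CPM in PBS and at 119, 311 and 524 CPM in cisplatin, a log2 change of −0.87 ± 0.32 (edgeR adjusted p = 0.697), and 3 of the 4 tested granule neuron genes were below 0. Eomes stood at 0, 286 and 351 CPM and at 0, 130 and 217 CPM, −0.91 ± 0.37 (edgeR adjusted p = 0.817). Among 6 tested genes of intermediate progenitors, Gadd45g, a stress and differentiation gene chosen after its values were seen, missed the threshold (log2 change −2.12 ± 0.55, edgeR adjusted p = 0.103). It stood at 0 to 57.9 CPM in the 4 cisplatin libraries and at 82.5 to 293 CPM in the 6 PBS libraries. Of the GABAergic list 8 of 14 genes were tested. Etv1, a factor of olfactory interneurons, had −4.03 ± 0.97 (edgeR adjusted p = 0.0632), with 0 to 14.5 CPM in cisplatin and 0 to 176 CPM in PBS. Dlx1 had 0.41 ± 0.39 (edgeR adjusted p = 0.957). Dlx2 had −0.19 ± 0.53 (edgeR adjusted p = 0.995). The medians were −0.45 for the intermediate progenitor, −0.58 for the granule neuron and −0.21 for the GABAergic list.

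None of the 14 tested G2 and M genes and 7 tested S phase genes passed in edgeR, with medians of −0.45 and −0.11 and 12 and 4 members below 0. At an unadjusted p under 0.05 there were 2 and 0. Top2a stood at 0, 117 and 586 CPM in PBS and at 0, 0 and 808 CPM in cisplatin, where of the 4 libraries only Cisplatin nonstim replicate 3 held it, with all 37 UMIs in 1 cell. Mki67 had a log2 change of −1.45 ± 0.95 (edgeR adjusted p = 0.939). Hmgb2, a chromatin protein of dividing cells, had −0.98 ± 0.41 (edgeR adjusted p = 0.817) and Ube2c, a mitotic ubiquitin enzyme, −1.78 ± 0.82 (edgeR adjusted p = 0.817).

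Hist1h1e, a linker histone and the 1 histone gene called, stood at 41.3, 963 and 465 CPM in PBS nonstim, 255, 292 and 923 CPM in PBS stim, 0, 188 and 175 CPM in Cisplatin nonstim and 160 CPM in Cisplatin stim replicate 3. All 4 cisplatin libraries lay below 5 of the 6 PBS libraries (log2 change −1.99 ± 0.43, edgeR adjusted p = 0.0206). It did not pass without Cisplatin nonstim replicate 2, Cisplatin stim replicate 3 or PBS nonstim replicate 2 (edgeR adjusted p = 0.244, 0.354 and 0.165). It was also lost in libraries with at least 10 progenitors, with all libraries, with a filter of at least 20 UMIs in at least 3 libraries and in cells with at most 10% mitochondrial UMIs (edgeR adjusted p = 0.795, 0.159, 0.0592 and 0.448), and in limma-voom (adjusted p = 0.163). Of 14 tested genes of the clustered histone families, a set named after this call was seen, 13 had a log2 change below 0 (median −1.96), 1 was called and 10 had an unadjusted p under 0.05. The smallest adjusted p among the other 13 was 0.0625 in edgeR, for Hist1h4d. The 1 value above 0 was that of Hist1h2ap, with 0.10 ± 0.90 (edgeR adjusted p = 0.999), whose cisplatin UMIs were 6, 11, 208 and 0 in the 4 libraries and where 2 cells of Cisplatin nonstim replicate 3 held the 208. Of the 31-base words of its transcripts 0.934 were shared with other genes, and 0.347 of those of Hist1h1e, so the counting could split or lose their reads.

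Ttr, the transthyretin gene, whose RNA is abundant in choroid plexus cells, was called as higher with cisplatin. It stood at 0 to 458 CPM in PBS progenitors and at 1606, 1534 and 175 CPM in Cisplatin nonstim and 447 CPM in Cisplatin stim replicate 3 (log2 change 2.53 ± 0.53, edgeR adjusted p = 0.0169). Microglia of the same libraries held 2.54 to 511 CPM of Ttr in PBS and 253 to 1599 CPM in the tested cisplatin libraries. Of PBS cells, 47.3% of progenitors and 49.9% of microglia had a Ttr UMI, at median depths of 4122 and 5713.5 UMIs. Of cisplatin cells, 78.1% and 87.1% had one, at 2632.5 and 6952 UMIs. Choroid plexus cells were 2.29% to 24.1% of the PBS libraries and 7.96% to 38.0% of the cisplatin libraries. Within libraries the order of progenitors and microglia varied: progenitors held more Ttr than microglia in Cisplatin nonstim replicate 1 (1606 against 787 CPM) and less in Cisplatin nonstim replicate 3 (175 against 253 CPM). Choroid plexus share and progenitor Ttr mostly rose together over the tested libraries. In PBS nonstim replicates 1, 2 and 3 they were 2.29%, 4.83% and 9.94%, with 82.5, 72.2 and 103 CPM. In PBS stim they were 2.95%, 16.1% and 24.1%, with 0, 268 and 458 CPM. In Cisplatin nonstim they were 10.8%, 38.0% and 11.4%, with 1606, 1534 and 175 CPM. Cisplatin stim replicate 3 had 19.2% and 447 CPM. The clearest departure was Cisplatin nonstim replicate 1. The part of free RNA in the Ttr result was not tested. Ttr did not pass without Cisplatin nonstim replicate 1 or 2, PBS nonstim replicate 1 or 2 or PBS stim replicate 1 (edgeR adjusted p 0.0739 to 0.498). It was also lost in libraries with at least 10 progenitors, with all libraries, in the second batch alone and in cells with at most 10% mitochondrial UMIs (edgeR adjusted p = 0.524, 0.478, 0.104 and 0.304), in DESeq2 (adjusted p = 0.0768) and in limma-voom (adjusted p = 0.163).

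Lars2, a mitochondrial leucyl-tRNA synthetase gene, and Gm42418 and AY036118, 2 transcripts that overlap each other on opposite strands of chr17 and carry ribosomal RNA sequence, were all lower. Lars2 stood at 206, 666 and 908 CPM in PBS nonstim, 255, 1620 and 638 CPM in PBS stim, 59.5, 43.4 and 43.7 CPM in Cisplatin nonstim and 192 CPM in Cisplatin stim replicate 3, without overlap between the arms. Its log2 change was −3.38 ± 0.45 (edgeR adjusted p = 7.96e-05), and it passed whichever library was left out. AY036118 had −3.62 ± 0.53 and Gm42418 −2.22 ± 0.45 (edgeR adjusted p = 0.000179 and 0.013). AY036118 did not pass without Cisplatin stim replicate 3 (edgeR adjusted p = 0.0849), nor Gm42418 without it or Cisplatin nonstim replicate 2 (edgeR adjusted p = 0.392 and 0.483). Neither passed in DESeq2 (adjusted p = 0.0942 and 0.102). In libraries with at least 10 progenitors neither these nor Lars2 passed in edgeR (adjusted p = 0.667 for Lars2). The 3 genes made up 1.06% to 2.63% of the progenitor UMIs of the second-batch PBS libraries, 0.255% to 0.54% of the first-batch ones and 0.122% to 0.423% of the cisplatin ones. All other cells of the same libraries held 0.479% to 3.68% in PBS and 0.34% to 0.784% in cisplatin. Lower levels with cisplatin were thus not limited to progenitors. Their part in the other calls was not tested beyond the fit with that share as a covariate, which called 20 genes, 1 higher and 19 lower. In that fit Calb2 and Sox9 lost their calls (edgeR adjusted p = 0.1002 and 0.662). Gm42418 lost its call too (edgeR adjusted p = 0.993). The share is made of the 3 genes themselves, so this fit cannot serve as a check on any of them.

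Genes of the response to cisplatin damage were mostly too low to test. Cdkn1a, the p53 target that arrests the cycle, had 7 UMIs in 4 of 165 PBS cells and 7 UMIs in 3 of 32 cisplatin cells, and it did not pass the filter on low counts. Of 26 p53 targets 23 had a UMI and 2 were tested, Bax at 0.09 ± 0.35 (edgeR adjusted p = 0.996) and Btg2 at −1.04 ± 0.44 (edgeR adjusted p = 0.817). Of 25 genes of crosslink and excision repair all 25 had a UMI and only H2afx was tested, at 0.14 ± 0.63 (edgeR adjusted p = 0.996). The apoptosis list had 4 tested genes and 0 called, with Cycs, cytochrome c, at 0.37 ± 0.40 (edgeR adjusted p = 0.962). Immediate early genes had 8 tested and 0 called, 7 below 0, with Fos at −0.64 ± 0.40 and Jun at −0.53 ± 0.37 (edgeR adjusted p = 0.936 and 0.948). The glucocorticoid list had 3 tested and 0 called. Medians were 0.23, −0.28 and −0.23 for the apoptosis, immediate early and glucocorticoid lists.

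Signalling and receptor genes of immature neurons were described by their counts. Slc12a2, the chloride importer of immature neurons, had 45 UMIs in 35 cells, whereas Slc12a5, the exporter of mature ones, had 1 UMI. Of glutamate and GABA receptor subunits Gria2 had UMIs in 138 cells and Grin2b in 73, while Gabrd had none. Notch1 had 67 UMIs and its target Hes1 none, Dll3 had 41, and Id2 374 in 85 cells. In the Wnt list Ctnnb1, beta-catenin, had UMIs in 127 cells and Fzd3, a receptor, in 92. Of the receptor and chloride, Notch and Wnt lists 3, 3 and 4 genes were tested with cisplatin and 0 called, with medians of −0.49, 0.62 and −0.56 and with Fzd3 at −1.10 ± 0.40 (edgeR adjusted p = 0.669). Interferon genes were near 0, with Ifit2 at 15 UMIs and Isg15, Irf7 and Ifit3 at none, and of antigen presentation genes B2m had 14 UMIs. Of 10 tested cold and heat stress genes 0 were called (median 0.26). Cirbp, an RNA-binding protein induced by cold and chosen after its values were seen, stood at 284 to 607 CPM in cisplatin. In PBS it stood at 0 to 248 CPM (log2 change 0.90 ± 0.32, edgeR adjusted p = 0.669).

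Without stimulation, Cisplatin nonstim against PBS nonstim, 4 of 2358 genes (0.17%) passed, all among those above, 2 higher (0.0848%) and 2 lower (0.0848%): Ttr at 3.51 ± 0.57, Sox9 at 2.29 ± 0.40, Lars2 at −3.94 ± 0.60 and AY036118 at −3.43 ± 0.66 (edgeR adjusted p = 0.00172, 0.00336, 0.0011 and 0.0123). Calb2 had 1.59 ± 0.36 (edgeR adjusted p = 0.0696). Stimulation in PBS mice gave 0 calls of 2358 genes (0%) in edgeR, 32 at an unadjusted p under 0.05, and 0 in DESeq2 and limma-voom. The 6 markers changed by −0.27 to 0.56 there, each with an edgeR adjusted p of 0.998. Averaged over drug, stimulation also gave 0 of 2358 calls (0%) in edgeR, DESeq2 and limma-voom, with 43 at an unadjusted p under 0.05 in edgeR. Of the 14 tested G2 and M genes, 13 were below 0 with stimulation in PBS mice (median −0.88). Averaged over drug, all 14 were (median −1.01). At an unadjusted p under 0.05 in edgeR there were 3 and 4. Of the 7 tested S phase genes, 4 and 5 were below 0 (medians −0.13 and −0.09). The lists were not tested as sets. Stimulation in cisplatin mice was not tested with these libraries, because only 1 Cisplatin stim library held at least 5 progenitors. With all 12 libraries and 760 genes, edgeR called 0 there, with 63 at an unadjusted p under 0.05.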

How the data were processed

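Cells were grouped by the authors' deposited annotation, and the libraries by the labels. The authors deposited UMI counts per cell and gene; the submitters' processing notes name Cell Ranger 5.0.0, Scanpy and mm10, and no source used here gives more. The doublet and phase scores deposited by the authors were described only, and no value came from their summary signals. Because 3′ chemistry counts molecules near transcript ends, values say nothing of isoforms.

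Counts were summed per library. edgeR 4.0.16 (R 4.3.3) fitted quasi-likelihood models with group and batch to cell numbers of 12 types (offset: log of all cells). The same was done for progenitor sums of libraries with at least 5 cells (TMM, filterByExpr, 2358 genes). Gene comparisons averaged over stimulation or drug instead had drug, stimulation and batch as additive terms, because Cisplatin stim kept too few libraries. They therefore assume no interaction of drug and stimulation. Adjustment followed Benjamini-Hochberg over each comparison, and a call has an adjusted p under 0.05. DESeq2 1.42.0 and limma 3.58.1 were alternatives. Errors are SE unless named. Intervals of counted shares are exact (Clopper-Pearson), and a share of 0 allows 3 counts. Intervals of log2 and fold changes come from the edgeR SE and a t distribution. Thinning drew 1000 UMIs per cell. The code was tested on simulated data. Deviations from group means of PBS nonstim and PBS stim libraries of the same number correlated at 0.211, 0.041 and 0.139, so numbers were not taken as pairs. Pooled animals limit n to libraries.

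Members and lists were chosen with earlier results of these data known. Named are the markers, the 15 leading genes, all called genes, 2 to 4 tested members of a list with the smallest p, and Cdkn1a, Mki67, Top2a, Prox1, Dlx2, Eomes and Hopx always; Stmn2, Bhlhe22, Id2, Tac2, Emx2, Sox4, Gadd45g, Cirbp, the 4 glutamatergic factors, the histone families and the genes described by UMI counts were chosen after their values were seen. Some members of the lists are not reported here.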

Additional observations from a re-analysis of the deposited data

Results flagged for a closer look

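Of 26 groups of 4 or 6 libraries examined for a library far from the rest, 3 held one, where chance gives about 1 group in 20. Hist1h2ap stood at 4543 CPM in Cisplatin nonstim replicate 3, and the next highest of the 4 cisplatin libraries held 357 CPM. Lars2 stood at 192 CPM in Cisplatin stim replicate 3, and the next at 59.5 CPM. Hist1h1e stood at 0 CPM in Cisplatin nonstim replicate 1, which held 16810 progenitor UMIs, and the next lowest at 160 CPM.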

How the results depend on the processing

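The cause of a change under an alternative was not tested unless named. The lower progenitor share with cisplatin passed under every setting and left-out library tried, with log2 changes of −2.47 to −1.60 in the edgeR and DESeq2 fits. With a replicate block it was −2.11 (edgeR adjusted p = 0.00114), and Cisplatin nonstim against PBS nonstim −1.95; the block changed no other call and gave 8 called genes in place of 7 with cisplatin. The uncalled stimulation effects changed sign: in cisplatin mice 0.11 in the second batch alone, in PBS mice 0.20 with TMM, 0.16 among neural cells and 0.058 without choroid plexus and ependymal cells, for the interaction 0.16 and for stimulation averaged over drug 0.031 in the second batch alone. Leaving out 1 library each gave −1.06 to 0.10 in cisplatin mice, −0.25 to 0.045 in PBS mice and −0.96 to 0.23 for the interaction.

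Genes called with cisplatin numbered 0 in libraries with at least 10 progenitors (1 cisplatin library), 3 with all libraries (760 genes tested), 4 with limma-voom, 22 without a filter on low counts, 20 with the ribosomal RNA-like share as a covariate and 4 in cells with at most 10% mitochondrial UMIs. Leaving out 1 library gave 3 to 13: 4 without Cisplatin nonstim replicate 2 or PBS nonstim replicate 2, 3 without Cisplatin stim replicate 3, and 13 without Cisplatin nonstim replicate 3 or PBS nonstim replicate 3. Cisplatin nonstim against PBS nonstim gave 1 with all libraries, 0 with limma-voom, 21 without the filter, 17 with the covariate and 1 to 10 with 1 library left out, the ends without Cisplatin nonstim replicate 2 and PBS nonstim replicate 3. Without the filter stimulation gave 1 in PBS mice and 1 averaged over drug, and averaged over drug 0 to 1 with 1 library left out (1 without PBS nonstim replicate 3). AY036118 stood at 0.10 in libraries with at least 10 progenitors. Cycling cells differed by 14.6 points with at least 3 phase genes and by −15.3 in libraries with at least 10 progenitors.

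Settings that ended the call of a single gene stand beside that gene in the report. The uncalled markers changed sign with cisplatin between settings or left-out libraries: log2 changes ran from −1.41 to 0.30 for Igfbpl1, −0.52 to 0.47 for Sox11, −8.53 to 0.44 for Neurod1, −0.31 to 0.80 for Dcx and −3.53 to 3.07 for Hist1h2ap. Depth limits the gene tests: 2358 of 14145 detected genes passed the filter on low counts.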
